A study of Gasterosteus aculeatus with 62 samples.

Results

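The 100 genes described here differed more between male threespined sticklebacks in the telencephalon than in the diencephalon, and did not follow the same males in both regions. They were chosen from 22295 gene models by measured values. The steps kept the 20805 models with ENSGACG identifiers, then 13406 with a mean of at least 5 CPM (counts of a gene per M counts in all gene models) over 60 libraries, then 13042 whose regional medians lay within 4-fold. Of these, 4301 had residuals that correlated below 0.3 between the regions across 30 males, where a residual is log2(CPM + 0.5) minus the mean of the treatment group. The 100 with the largest residual SD in telencephalon minus that in diencephalon were taken. Spread, correlation between the regions and fold between the regions were thus used to choose them, and their values on these measures are descriptions without a test. The last genes inside the limit were ENSGACG00000020653 and ENSGACG00000004928, with SD differences of 0.287 and 0.284, and the first outside were ENSGACG00000004873 and ENSGACG00000018468, both with 0.282. The files and the gene table used here pair none of the identifiers with a name, so the genes are given by identifier, with no function and no sequence.

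RNA was sequenced from the telencephalon and the diencephalon of 31 males that had built nests, 1 library per region and male, taken 1 hour after a behavioural trial. The male faced a caged live gravid female (courtship, 8 males), a caged model trout with odour cues (predator, 8 males), both a female and a trout model (tradeoff, 8 males), or empty cages (control, 7 males). The labels name odour only for the predator treatment. Males are cited by the number in their labels. The telencephalon library of predator male 42 stood apart. Its regional index, a log2 contrast of the 500 genes most biased to telencephalon and the 500 most biased to diencephalon, was -1.96, while the other 30 telencephalon libraries ranged from 0.648 to 2.58 and the 31 diencephalon libraries from -1.24 to -0.877. The genes of the index were chosen by the difference between the labelled regions in these libraries, without the telencephalon library of male 42. The separation of the other libraries is thus partly built in. With no gene names, the regions could not be checked against known marker genes, and no separate check of the regional labels was made. The rule left out both libraries of male 42, which leaves 60 libraries and 7 predator males per region. The 60 libraries held 26.2 to 51.1 M reads in gene models, with a mean of 35.6 M (SD 5.43).

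The telencephalon of a fish holds the pallium and the subpallium, which take part in learning, in the evaluation of stimuli and in social behaviour. The diencephalon behind it holds the thalamus and the hypothalamus, the seat of hormonal and autonomic control. In bulk tissue from 1 dissection, a gene can differ between animals because its cells are more or fewer in the piece or because each cell holds more or less of its RNA. These cannot be told apart in any result below.

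The members had a median residual SD of 0.722 in telencephalon (range 0.432 to 2.01) and of 0.323 in diencephalon (range 0.122 to 1.59), both in log2 units. For the 4201 other genes that met the first 3 conditions the medians were 0.138 in telencephalon and 0.132 in diencephalon. The members were therefore not flat in diencephalon: 98 of 100 had a diencephalon SD above the median of the other genes there. The description as varying in telencephalon only thus holds as an excess there, not as an absence of spread in diencephalon. From the lowest to the highest male the telencephalon level spanned a median of 11.8-fold and the diencephalon level 2.93-fold, over the 99 members with no 0 count, and 56 members spanned more than 10-fold in telencephalon. The exception with a 0 count was ENSGACG00000017329, which ranged up to 28.9 CPM in telencephalon and up to 11.6 CPM in diencephalon. The SD that counting alone gives at the mean telencephalon count of each gene had a median of 0.0602 log2 units. The observed SD, which the rule selected on, was 4.06-fold to 214-fold that value. Counting gives a larger SD in libraries with lower counts. The lowest telencephalon count of a member had a median of 117.5 reads (range 0 to 10218).

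**Figure D1:**
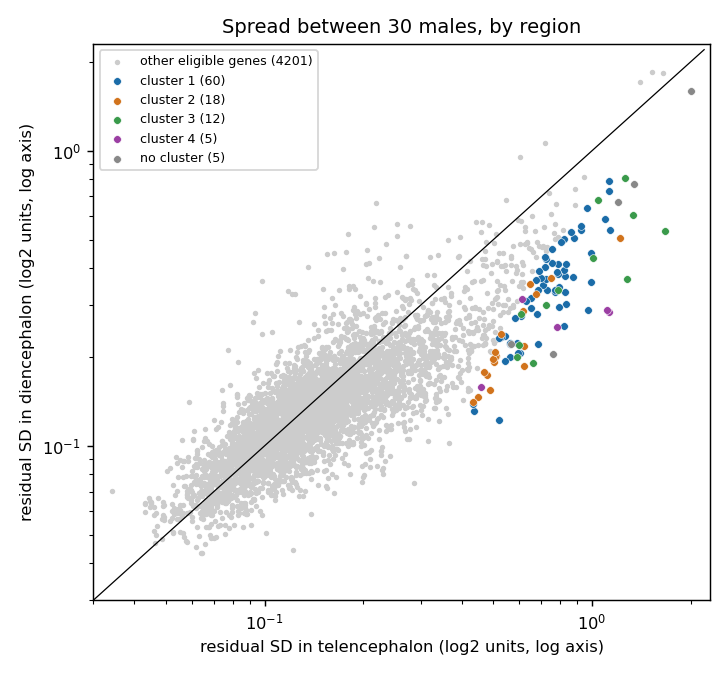
Residual SD over 30 males in telencephalon (horizontal) and diencephalon (vertical), both on log axes in log2 units, for the 100 members by cluster and for the 4201 other genes that met the first 3 conditions. The line marks equal spread; all members lie to its right, as the rule requires, and most lie above the bulk of the other genes on the vertical axis too.

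The members fell into a few blocks of genes that were high and low in the same males. Average-linkage clustering of the telencephalon residuals on 1 minus Pearson's r, cut at 0.5, put 95 members into 4 clusters of 60, 18, 12 and 5, and left 5 unclustered. Over all pairs of members the median r across the 30 males was 0.352 in telencephalon and 0.217 in diencephalon. Among the other genes it was 0.0148 in telencephalon and 0.0210 in diencephalon. Within the clusters the mean r in telencephalon was 0.759, 0.752, 0.843 and 0.816 for clusters 1 to 4, which the clustering fixed. In diencephalon, whose residuals did not enter the clustering, the same groups of genes had mean r of 0.498, 0.282, 0.593 and 0.420. The genes of a pair share their libraries, so these are descriptions. The mean residuals of clusters 1 and 2 correlated at 0.43 across males in telencephalon, and those of the other pairs lay between -0.21 and 0.10. In diencephalon the values were 0.58 for clusters 2 and 3, 0.38 for 2 and 4, 0.29 for 1 and 4, and 0.21 for 1 and 2. They were 0.05 for 3 and 4 and -0.08 for 1 and 3. Some of the clusters were thus less separate in diencephalon.

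**Figure D2:**
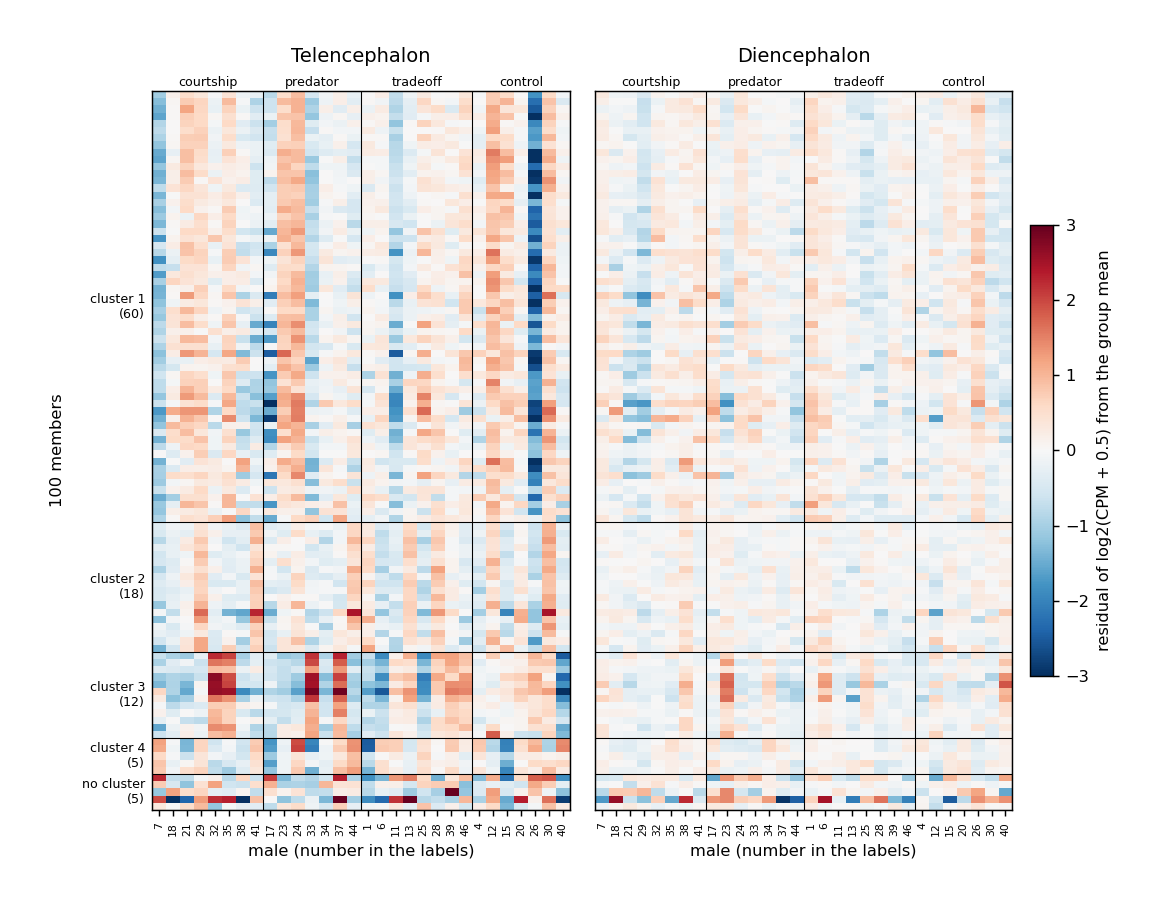
Residual of log2(CPM + 0.5) from the treatment group mean for the 100 members (down the page, by cluster) in telencephalon (left) and diencephalon (right), with the 30 males in the same order in both panels and colours limited at -3 and 3. Control male 26 is low across most of cluster 1 in telencephalon and slightly high in diencephalon, and the columns of cluster 3 switch between low and high males.

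Cluster 1 held 60 genes that were low in a few telencephalon libraries. Its level, the mean log2(CPM + 0.5) of its genes, was 2.26 in control male 26, 3.37 in courtship male 7, 3.56 in predator male 17 and 3.61 in predator male 33, and the other 26 males lay between 4.02 and 5.40. In each of the 60 genes the lowest telencephalon value belonged to male 26 (44 genes) or male 17 (16 genes). The same males were not low in diencephalon, where male 26 had the second highest level of the cluster, 5.56, after 5.65 in tradeoff male 1. The summed CPM of the cluster ranged from 1069 to 16099 in telencephalon (median 8580) and from 8879 to 18964 in diencephalon (median 13426), so every diencephalon library lay above the telencephalon median.

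The gene nearest to the rest of cluster 1 was ENSGACG00000011291, with a mean r of 0.859. In telencephalon its lowest, median and highest CPM were 2.67, 6.36 and 9.002 in courtship, 3.26, 5.71 and 12.13 in predator, 5.49, 9.69 and 12.08 in tradeoff and 1.45, 6.25 and 10.9 in control males. In diencephalon all 30 males lay between 7.14 and 13.7 CPM. The treatment groups overlapped in both regions, and the low values came from 1 or 2 males of a group. ENSGACG00000000536 and ENSGACG00000013993, the next nearest, had telencephalon ranges of 2.63 to 32.1 CPM and 0.295 to 13.3 CPM, and male 26 was lowest in both. The highest diencephalon values of these 2 genes were in male 1, at 32.2 and 16.3 CPM.

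The most abundant member, ENSGACG00000013533, was also in cluster 1. It had 111 CPM in the telencephalon of male 26, while the other control males had 1973 to 5215 CPM. In the other groups it ranged from 777 to 4109 CPM in courtship, from 1458 to 4672 CPM in predator and from 1782 to 4117 CPM in tradeoff males. Male 26 alone gave 56.1% of its residual variance in telencephalon, and had 6212 CPM in diencephalon, the highest of the control males there. The lowest count behind this gene in any telencephalon library was 4148 reads. The closest pair of the cluster, ENSGACG00000020365 and ENSGACG00000003467, correlated at 0.98 in telencephalon and 0.86 in diencephalon.

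Cluster 2 held 18 genes that all had a higher median in diencephalon, by a median of 1.65 log2 units, and were nearer to their diencephalon level in some telencephalon libraries. The cluster level was highest in control male 30 (4.68), tradeoff male 28 (4.63) and tradeoff male 13 (4.54), and the lowest was 2.83 in predator male 17. No telencephalon library of the 30 reached the diencephalon median of 4.85. Summed over the cluster, telencephalon libraries had 176 to 669 CPM (median 289.8) and diencephalon libraries 609 to 901 CPM (median 713). This cluster had the least spread in diencephalon, with a median SD of 0.201 there against 0.506 in telencephalon.

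At the centre of cluster 2 were ENSGACG00000011771, ENSGACG00000020415 and ENSGACG00000018031. ENSGACG00000011771 had a lowest, median and highest telencephalon CPM of 24.8, 29.8 and 61.2 in courtship, 22.5, 27.2 and 44.0 in predator, 29.4, 41.5 and 65.1 in tradeoff and 22.2, 30.2 and 71.5 in control males. Its diencephalon values ran from 68.5 to 103 CPM over all males. The groups overlapped in telencephalon. The highest predator male, at 44.0 CPM, lay below the highest male of each other group, and the lowest tradeoff male lay above the predator median. ENSGACG00000020415 and ENSGACG00000018031 peaked in the same library, that of male 30, with 50.0 and 36.7 CPM, and had medians of 20.4 and 11.2 CPM over the 30 telencephalon libraries. ENSGACG00000008430, the sixth of all members by SD difference, was the most variable of the cluster and ranged from 0.162 CPM (5 reads, male 17) to 14.5 CPM (male 30) in telencephalon and from 1.50 to 10.6 CPM in diencephalon.

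Cluster 3 held 12 genes whose telencephalon level fell into 2 bands. In 15 libraries the level lay between 2.84 and 3.53 and in the other 15 between 4.40 and 5.37, with a gap of 0.863 that held none of the 30 males. The upper band held control males 4, 12, 15, 20, 26 and 30, courtship males 32 and 35, predator males 33 and 37, and tradeoff males 11, 13, 28, 39 and 46. Every treatment group had males in both bands, and the bands were read from the values, so they were not compared. In diencephalon the levels ran from 3.87 to 5.30 without a gap of that size. The 6 highest diencephalon levels belonged to males 23 (5.30), 40 (4.88), 6 (4.79), 25 (4.65), 34 (4.60) and 38 (4.57), all of which lay in the lower telencephalon band. The next highest was control male 12 (4.38), of the upper band. Males 44 (3.89), 29 (3.93) and 21 (3.98) of the lower band had low diencephalon levels. The rule capped the correlation between the regions, and the cut at 6 was read from the values, so this is a description.

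Cluster 3 included 3 of the 5 members with the largest SD difference. ENSGACG00000004695, the first of all, had a lowest, median and highest telencephalon CPM of 0.529, 2.37 and 23.3 in courtship, 0.607, 1.32 and 25.3 in predator, 0.911, 14.3 and 23.6 in tradeoff and 0.615, 13.6 and 25.8 in control males. Each group thus spanned nearly the whole range of the gene, from below 1 CPM to above 23 CPM. Its diencephalon values ran from 3.57 to 22.8 CPM, with the highest in predator male 23, which had a low telencephalon level of the cluster. ENSGACG00000015460, second by SD difference and nearest to the rest of the cluster (mean r 0.898), ranged from 12.6 to 147 CPM in telencephalon and from 71.1 to 219.7 CPM in diencephalon. ENSGACG00000017768 ranged from 6.70 to 107 CPM in telencephalon and from 10.3 to 80.2 CPM in diencephalon, again with male 23 highest in diencephalon. ENSGACG00000000065 and ENSGACG00000017314 had telencephalon ranges of 4.99 to 60.8 CPM and 11.7 to 57.0 CPM, with tradeoff male 39 highest in both.

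Cluster 4 held 5 genes that were low in predator males 17 and 33 and control male 15, whose levels were 2.57, 2.89 and 2.84, against a highest level of 5.50 in tradeoff male 6. Its centre was the pair ENSGACG00000012470 and ENSGACG00000012466, both among the first 4 members by SD difference, which correlated at 0.997 across the 30 telencephalon libraries and at 0.962 in diencephalon. ENSGACG00000012470 had a lowest, median and highest telencephalon CPM of 36.5, 93.2 and 222 in courtship, 30.6, 119 and 470 in predator, 52.4, 384 and 509 in tradeoff and 43.9, 269 and 483 in control males. ENSGACG00000012466 followed with 14.2, 34.5 and 82.6 in courtship, 10.9, 42.9 and 196 in predator, 20.5, 148 and 204 in tradeoff and 17.1, 97.9 and 193 in control males. The highest courtship male lay below the tradeoff median and the control median in both genes, and the other groups overlapped widely. In diencephalon the same genes ranged over 137 to 293 CPM and 56.7 to 119 CPM. Whether these 2 models share reads, or overlap on opposite strands, was not tested. The third central gene, ENSGACG00000015567, ranged from 5.14 to 27.6 CPM in telencephalon and from 13.9 to 23.4 CPM in diencephalon.

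The 5 unclustered members had patterns of their own. In ENSGACG00000018732 a single library set the spread: tradeoff male 39 had 292 CPM in telencephalon, while the other 7 tradeoff males had 3.08 to 6.33 CPM and no male of another group exceeded 17.0 CPM. That library gave 64.8% of the gene's residual variance, and male 39 had the lowest diencephalon value of the tradeoff males, 4.52 CPM. ENSGACG00000000833 and ENSGACG00000009357 were the opposite case, with at most 9.20% and 10.5% of the residual variance from any 1 male. ENSGACG00000000833 ranged from 6.36 to 38.1 CPM in telencephalon and from 10.2 to 23.2 CPM in diencephalon. ENSGACG00000009357 ranged from 2.15 to 43.8 CPM in telencephalon and from 3.54 to 32.7 CPM in diencephalon, and its residuals in the 2 regions correlated at -0.72, the lowest value of all 13406 genes with a mean of 5 CPM or more. The others were ENSGACG00000017329 and ENSGACG00000002980.

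The largest residuals of the members came most often from 1 male. The male with the largest residual, called the leading male here, was male 26 in 54 members, always low. It was male 30 in 9 members, always high, and male 17 in 8, always low, and 14 other males led 1 to 4 members each. The leading residual was low in 75 members and high in 25, and its share of the residual variance had a median of 21.95% (range 9.20% to 64.8%), against 18.6% for the 4201 other genes. In the telencephalon of male 26, 61 of the 100 members lay more than 1 log2 unit below the control mean, and the median member residual was -1.44. In its diencephalon the median member residual was 0.31 and none lay more than 1 unit below. Without male 26 the median SD of the same 100 genes was 0.595 in telencephalon and 0.303 in diencephalon.

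The rule capped the correlation between regions at 0.3, and the members ranged from -0.72 to 0.29. It was below 0 in 73 of 100 members, against 22.4% of the other genes that met the first 3 conditions, and below -0.3 in 37 members, against 1.81% of the others. The rule used this measure, so the shares are descriptions. Between the mean residuals of a cluster in the 2 regions, r was -0.49, -0.43, -0.56 and -0.20 for clusters 1 to 4. Males with a low telencephalon level of clusters 1 to 3 tended to have a high diencephalon level of the same genes. In cluster 1 this rests in part on male 26, with mean residuals of -2.18 in telencephalon and 0.49 in diencephalon. The r without male 26 was not computed. Taking all genes, the libraries of 1 male went the other way: their deviations from group means over 13406 genes correlated at a mean of 0.410 (range 0.00426 to 0.652). Over the members alone, the same-male correlation had a median of -0.14 and was below 0 in 21 of 30 males. The rule capped the correlation between regions for each member, so a lower value than over all genes was partly built in. The median level was higher in diencephalon for 89 of 100 members, against 54.1% of the other genes, and for 22 it was more than 2-fold higher.

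**Figure D3:**
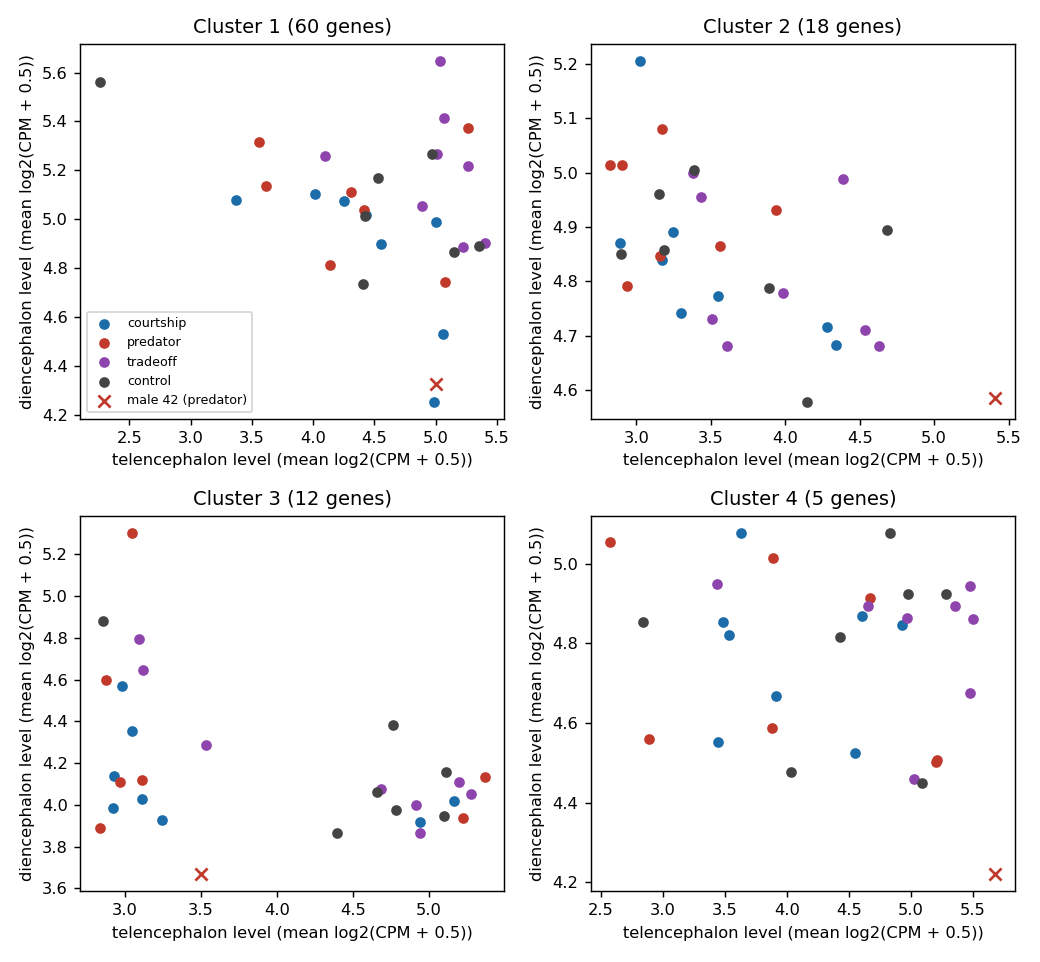
Cluster level, the mean log2(CPM + 0.5) of the cluster's genes, in telencephalon (horizontal) and diencephalon (vertical), 1 point per male, coloured by treatment. The cross is predator male 42, which did not enter the choice of genes. Cluster 3 shows the 2 telencephalon bands of 15 males each. The 6 highest diencephalon levels are all in the lower band, and the next highest is in the upper band. The rule capped the correlation between the regions.

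The regional index of the telencephalon library moved with some of these genes. It was recomputed without the members, since 17 of them were among the 500 genes biased to diencephalon and none among the 500 biased to telencephalon. Across 30 males, after removing group means, the telencephalon level of cluster 2 correlated with the index at r = -0.84 (rho = -0.88), and at r = -0.85 without males 30 and 12, the 2 farthest from the median index. The values were r = -0.38 (rho = -0.33) for cluster 1, -0.16 (rho = -0.17) for cluster 3 and -0.02 (rho = 0.02) for cluster 4. Without the same 2 males they were -0.24, -0.09 and -0.10. Cluster 2 was thus highest in the telencephalon libraries with the least telencephalon-biased profile. Of its 18 genes, 13 were among the 500 biased to diencephalon. The index subtracts other genes biased to diencephalon, as all 18 were by median, so a negative r was partly built in. Single-gene r with the index was below -0.5 in 21 of 100 members and 12.3% of the 4201 other genes. It was below 0 in 98 members and 53.2% of the others. A linear term in the index was also removed from the residuals, here with the 17 members left in the index. The mean r within the clusters was then 0.740, 0.466, 0.843 and 0.847 in telencephalon. For cluster 2, with 13 genes in that index, part of its own values was removed with it. How much of the spread of cluster 2 comes with the index in any 1 library was not tested. Correlations of the cluster levels with the total count and with the shares of reads in no gene, in several places or in ambiguous places lay between -0.36 and 0.16.

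**Figure D4:**
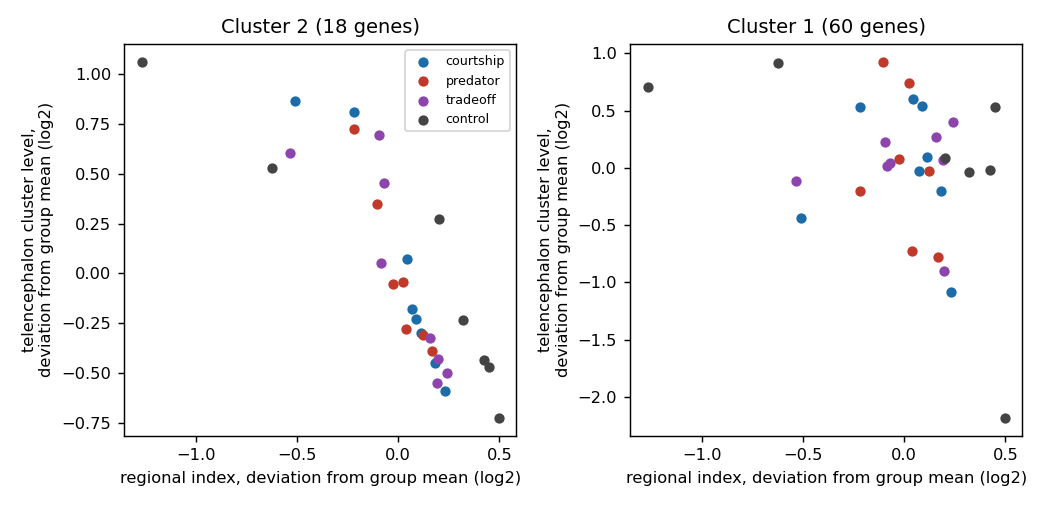
Deviation of the telencephalon cluster level from the treatment group mean (vertical, log2) against that of the regional index (horizontal, log2), 1 point per male, for cluster 2 (left) and cluster 1 (right). Cluster 2 follows the index at r = -0.84 over 30 males, and cluster 1 at r = -0.38, with male 26 far below the others.

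The libraries of male 42 were not used to choose the genes. Its telencephalon library had a regional index of -1.96, below that of every diencephalon library. All 18 genes of cluster 2 had a higher median in diencephalon, so high values of cluster 2 in this library are not separate from that profile. In the telencephalon library of male 42, 24 members lay above all 30 other males, 2 below and 74 within their range. Of the 4201 other genes, 18.2% lay above, and 49.0% below. Of the 24 members, 14 were in cluster 2, whose level in this library was 5.41, above the highest of the others. The level of cluster 4 was also above the others, at 5.68, while clusters 1 and 3 lay within their range, at 5.003 and 3.50, the second in the lower band. In the diencephalon library of male 42, 29 members lay below all the others and none above, against 8.76% below and 7.50% above among the 4201 other genes, and the levels of clusters 3 and 4 were below all the others, at 3.67 and 4.22.

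Other genes had the patterns of the clusters too. They were sought among 13471 models, with or without ENSGACG identifiers, whose mean over the 30 telencephalon libraries was at least 5 CPM. Of these, 101 genes that were no members had telencephalon residuals that correlated at 0.8 or more with the mean of cluster 1. The numbers were 109 for cluster 2, 22 for cluster 3 and 0 for cluster 4. For cluster 2, 50 of the 109 had been left out because their diencephalon median was more than 4-fold higher. For clusters 1, 2 and 3 these genes were more than the members of the cluster.

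The treatments were compared gene by gene in each region over 30 males, using edgeR's quasi-likelihood test with Benjamini-Hochberg adjustment over all tested genes and a threshold of 0.05. All 100 members were tested, of 18687 genes in telencephalon and 18918 in diencephalon. The group means had not been used to choose them. The spread within groups had been, and the standard errors of these tests rest on it, so large ones in telencephalon follow from the choice. No member passed the threshold in any of the 10 comparisons in telencephalon. Among all tested genes, the share called was 0.00535% for any difference among the treatments, 0.0214% for predator against control, 0.00535% for tradeoff against control, 0.0375% for the predator cue averaged over both female settings, and 0% in each of the other 6. DESeq2, and voom with sample quality weights, likewise called 0 members in every comparison. The standard error (SE) of an edgeR fit was derived as the absolute log2 difference divided by the square root of the test's F statistic. The median standard error of a log2 difference from control was 0.366 to 0.379 for the members, against 0.101 to 0.105 for all genes, so a difference had to be large to pass.

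In telencephalon the members leaned higher in tradeoff males without passing the test. Against predator males the median log2 difference of the members was 0.59, 99 of 100 were higher, and 25 had an unadjusted p under 0.05, against 2261 of the 18687 tested genes (12%), whose median difference was 0.01. Against courtship males the median was 0.47, 99 were higher and 17 had an unadjusted p under 0.05, against 8.46% of all genes. Against control males the median was 0.31, 87 were higher and 1 had an unadjusted p under 0.05, against 3.55% of all genes. These comparisons share the tradeoff libraries, and the members move together in blocks, so the counts do not stand for that many separate genes. Of the 25, cluster 2 gave 12 and cluster 1 gave 12. The regional index of the library was also used as a covariate. Then 2 members in place of 25 had an unadjusted p under 0.05 in tradeoff against predator (4.52% of all genes). In tradeoff against courtship 6 in place of 17 did (5.15%), so the members' counts came near the share over all genes. The index used here included 17 of the members, 13 of them in cluster 2. In telencephalon it ranged from 1.43 to 2.22 in tradeoff and from 2.18 to 2.58 in predator males. Index and treatment can thus hardly be told apart in tradeoff against predator. Without control male 26, which enters neither comparison but does enter the shared estimate of the spread, the counts were 36 (12.6% of all genes) and 29 (8.82%). Without tradeoff male 39 they were 22 (11.1%) and 10 (6.81%), and with both libraries of male 42 they were 7 (5.35%) and 14 (4.52%). The medians of the members without male 26 or male 39 stayed between 0.55 and 0.59 against predator and between 0.46 and 0.47 against courtship males, and with male 42 the median against predator males was 0.35.

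For courtship against control the median log2 difference was -0.19, with 21 of 100 higher and 1 unadjusted p under 0.05 (5.4% of all genes). For predator against control it was -0.32, with 24 higher and 5 unadjusted (8.44% of all genes). For courtship against predator it was 0.05, with 51 higher and 0 unadjusted (3.53% of all genes). The mean effect of the female had a median of 0.18 with 3 members unadjusted (3.39% of all genes), and that of the predator cue 0.07 with 2 (3.57% of all genes). The departure from additivity, which asks whether female and predator together differ from the sum of their separate effects, had a median of 0.73, with 98 members above 0 and 24 unadjusted, against 15.3% of all genes. Any difference among the treatments gave 6 members unadjusted, against 7.89% of all genes. Single control males moved these values. Without male 26 the departure gave 43 members unadjusted (19.2% of all genes), and without male 30 it gave 15 (10.7%). The median for predator against control was -0.40 without male 26, -0.19 without male 30 and -0.01 with male 42, and that for courtship against control was -0.31 without male 26 and -0.06 without male 30. For tradeoff against control, the count of 1 unadjusted by edgeR was 22 by voom with sample quality weights (5.73% of all genes) and 21 with the replicate block (4.38%), and 0 members passed the adjusted threshold by either.

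The cluster levels show how far the groups overlapped. Cluster 1 averaged 4.46 ± 0.58 in courtship (SD, n = 8), 4.34 ± 0.66 in predator (n = 7), 4.998 ± 0.399 in tradeoff (n = 8) and 4.44 ± 1.03 in control males (n = 7). Cluster 2 averaged 3.48 ± 0.55 in courtship, 3.21 ± 0.40 in predator, 3.93 ± 0.52 in tradeoff and 3.62 ± 0.64 in control males. In both clusters the ranges of all 4 groups overlapped. Cluster 3 averaged 3.54 ± 0.94 in courtship, 3.63 ± 1.14 in predator, 4.35 ± 0.93 in tradeoff and 4.52 ± 0.78 in control males. Cluster 4 averaged 4.01 ± 0.59 in courtship, 4.04 ± 1.05 in predator, 4.99 ± 0.70 in tradeoff and 4.50 ± 0.85 in control males.

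**Figure D5:**
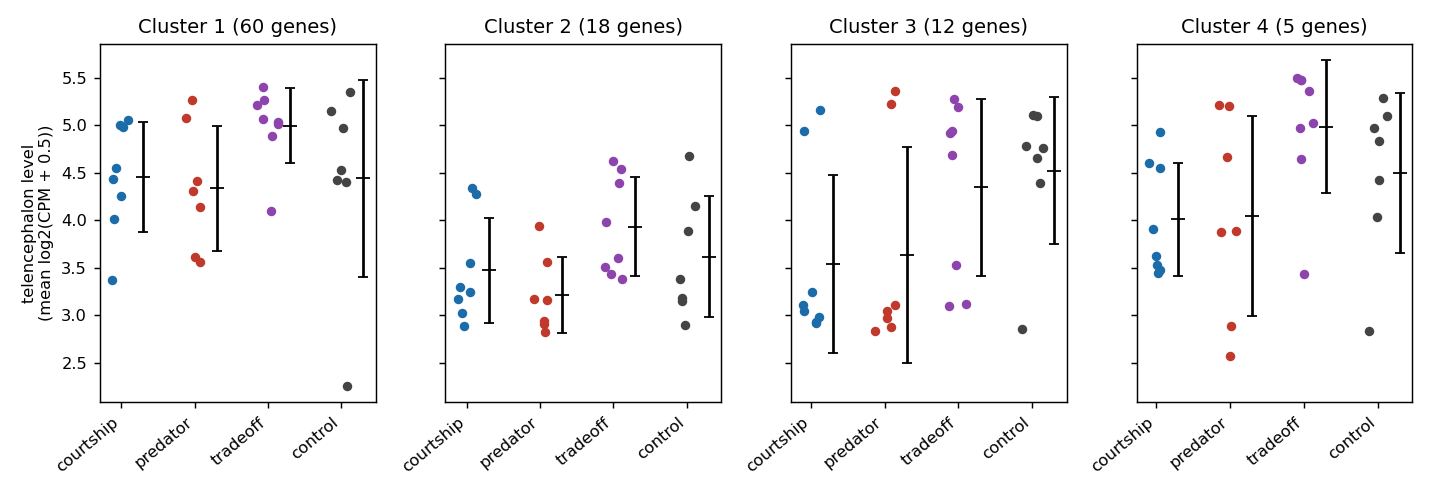
Telencephalon cluster level, the mean log2(CPM + 0.5) of the cluster's genes, by treatment, 1 point per male, with the mean and SD beside the points (8 courtship, 7 predator, 8 tradeoff and 7 control males). The groups overlap in all 4 clusters, and single males lie far from their group, such as control male 26 at 2.26 in cluster 1.

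The smallest p of any member in telencephalon, leaving out the test for any difference among the treatments, belonged to ENSGACG00000018732 in tradeoff against predator. Its log2 difference was 3.22 (SE 0.922, adjusted p = 0.244 by edgeR's quasi-likelihood test). It rested on 1 library: without male 39 the log2 difference was 0.01 (SE 0.360, adjusted p = 0.994). With all males it was 0.83 by voom with sample quality weights and 0.71 with the replicate block. In 1 fit of all 60 libraries in 8 groups, an alternative that shares the spread between regions, this gene passed the threshold for any difference among the treatments in telencephalon (adjusted p = 0.0111 by the same test), where 0.435% of 19297 genes did. In the same fit ENSGACG00000005228 (log2 1.75, adjusted p = 0.0372) and ENSGACG00000016136 (log2 1.06, adjusted p = 0.0474) passed for the departure from additivity in telencephalon, where 1.11% of all genes did. The rule took genes with less spread in diencephalon, so sharing the spread tends to lower their standard errors in telencephalon. For ENSGACG00000018732 in tradeoff against predator, the SE was 0.720 in this fit and 0.922 in the fit of telencephalon alone. The fit of 60 libraries also treats the libraries of 1 male as independent. A fit with a replicate block for the male left 0 members past the threshold. Its smallest adjusted p was 0.322 for any difference and 0.0988 for the departure by limma. It used voom in place of edgeR, so the 2 fits differ in more than the block. ENSGACG00000005228 and ENSGACG00000016136 were chosen for naming after their values were seen.

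In diencephalon no member passed the threshold in any of the 10 comparisons, and neither did any other gene, so the share called was 0% throughout. The counts of members with an unadjusted p under 0.05 were 12 for any difference (3.84% of all genes), 10 for courtship against control (4.63%), 1 for predator against control (3.26%) and 2 for tradeoff against control (3.85%). They were 21 for tradeoff against courtship (3.49%), 2 for tradeoff against predator (3.93%) and 11 for courtship against predator (5.97%). Averaged over both predator settings, the female gave 6 (5.96%), and the predator cue, averaged likewise, gave 14 (3.83%). The departure from additivity gave 11 (2.84%). All 21 in tradeoff against courtship and 13 of the 14 for the predator cue were in cluster 1, whose genes move together in this region too. In tradeoff against courtship, 59 of the 60 cluster 1 genes were higher in tradeoff males, with a median log2 difference of 0.33. Cluster 1 thus leaned higher in tradeoff than in courtship males in diencephalon too. In the same comparison 4 of 18 genes were higher in cluster 2, 9 of 12 in cluster 3 and 5 of 5 in cluster 4. The smallest p in diencephalon, with the test for any difference left out, was that of ENSGACG00000003441, a cluster 1 gene, in tradeoff against courtship. It had a lowest, median and highest diencephalon CPM of 789.6, 977 and 1359 in tradeoff males and 678, 853 and 993 in courtship males, which overlapped. Its log2 difference was 0.32 (SE 0.0990, adjusted p = 1.00 by edgeR's quasi-likelihood test).

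The difference between the regions in each treatment effect was tested over 60 libraries. This fit treats the 2 libraries of a male as independent. No member and no other gene of 19297 passed the threshold (0%), and none did with the male as a fixed block. The medians and unadjusted counts that follow are from the fit without the block. For courtship against control the median difference of the members was -0.03 and 1 had an unadjusted p under 0.05 (2.86% of all genes). For predator against control the values were -0.31 and 4 (3.77%), and for tradeoff against control 0.24 and 1 (1.94%). The members' treatment effects were therefore not shown to differ between telencephalon and diencephalon.

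The mirror image of the rule, the 100 genes with the largest excess of diencephalon over telencephalon spread, gave smaller values. Those genes had a median SD of 0.179 in telencephalon and 0.311 in diencephalon, a median excess of 0.124, while the members had a median excess of 0.367 the other way. Their median pairwise r was 0.0908 in diencephalon, against 0.352 for the members in telencephalon. Male 17 led 47 of them and male 12 led 19, while they led 8 and 3 of the members. Male 30 led 7 mirror genes and 9 members, and male 26 led 1 mirror gene and 54 members. The genes of the 2 lists were picked by opposite ends of 1 measure, and the contrast is a description.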

How the data were processed

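Per the labels' protocols, libraries were stranded, from polyA RNA, and shared 1 sequencing lane. The deposited values are raw read counts per gene model, not pooled, made by the authors with STAR and HTSeq, per the submitters' processing notes. Tool versions, build, gene annotation and strand setting of the counting: not given in the sources used here. Thus reads of overlapping antisense genes may be counted together. On average 44.5% of tallied reads were in gene models, 44.5% in no feature, 10.3% (range 4.66% to 14.6%) in several places and 0.706% ambiguous. Genes with near-identical copies may be undercounted. Of 22295 identifiers, 0 matched the gene table (52177 entries).

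CPM were computed on the total count in gene models, and residuals from treatment means within a region (Python 3.11.15, numpy 2.4.6, pandas 2.3.3, scipy 1.17.1). The members and lists were chosen with earlier results of these data known. Treatments were tested with edgeR 4.0.16 in R 4.3.3 (TMM, filterByExpr with minimum count 10 and minimum total 15, robust quasi-likelihood fits), fitted over all genes of 30 males per region, with Benjamini-Hochberg adjustment. The script was tested on simulated data. Alternatives used limma 3.58.1 (voom) and DESeq2 1.42.0, other scalings, filters, libraries and covariates. P-values of the 10 comparisons were not adjusted across comparisons. The index used log2-CPM with prior count 2 over genes with a mean above 3.

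The labels give both regions of a male the same number, so the libraries are paired by animal. Within males the deviations over 13406 genes correlated between regions at a mean of 0.410, against -0.0139 between different males, and 26 of 30 telencephalon libraries correlated best with their own male. The replicate block changed no call: members called were 0 in each comparison with it. Genes named in the text were the 6 members with the largest SD difference, the 2 on each side of the limit, the 3 nearest to the centre of each cluster, the 2 most and the 2 least set by 1 male, and the member with the smallest p per region. The smallest p was sought without the test for any difference among the treatments. Named beyond this list were the closest pair of cluster 1, the remaining unclustered members and 2 further members that passed in an alternative fit.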

Additional observations from a re-analysis of the deposited data

Results flagged for a closer look

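Each value here lay far from the rest of its treatment group by Dixon's test at the 95% level, which chance alone passes in about 1 of 20 groups. Of 208 groups of values checked (the named members and the 4 clusters in both regions), 25 passed, and 1 further value concerns male 42. The genes were chosen for a large spread in telencephalon, and 2 of them because 1 male set it, so more than 1 in 20 was fixed by the choice and the number says nothing beyond it. The genes of a cluster also move together.

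Control male 26 was low in telencephalon for genes of cluster 1. It had 0.295 CPM of ENSGACG00000020653 (other control males 4.25 to 9.81), 1.45 CPM of ENSGACG00000011291 (others 5.78 to 10.9), 0.295 CPM of ENSGACG00000013993 (others 3.77 to 9.56) and 111 CPM of ENSGACG00000013533 (others 1973 to 5215). The cluster 1 level of this library was 2.26, while the other control males lay between 4.40 and 5.35.

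Tradeoff male 11 was low for the same cluster. It had 4.71 CPM of ENSGACG00000004928 (other tradeoff males 10.4 to 16.9), 5.49 CPM of ENSGACG00000011291 (others 8.65 to 12.08) and 561 CPM of ENSGACG00000003441 (others 917 to 1229), and its cluster 1 level was 4.09 (others 4.89 to 5.40). Predator male 17 had 1.33 CPM of ENSGACG00000004928 (other predator males 4.81 to 10.7).

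Control male 40 was the only control male in the lower band of cluster 3. In telencephalon it had 0.615 CPM of ENSGACG00000004695 (other control males 8.55 to 25.8), 12.6 CPM of ENSGACG00000015460 (others 68.1 to 145), 7.73 CPM of ENSGACG00000017768 (others 36.6 to 97.2) and 16.5 CPM of ENSGACG00000017314 (others 32.7 to 50.1). Its cluster 3 level was 2.86 (others 4.40 to 5.11).

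Tradeoff male 1 was low in telencephalon for cluster 4, with 20.5 CPM of ENSGACG00000012466 (other tradeoff males 82.1 to 204), 52.4 CPM of ENSGACG00000012470 (others 207 to 509) and a cluster level of 3.44 (others 4.65 to 5.50).

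Single telencephalon libraries were high in unclustered members. Tradeoff male 39 had 292 CPM of ENSGACG00000018732 (other tradeoff males 3.08 to 6.33), and courtship male 7 had 34.0 CPM of ENSGACG00000009357 (other courtship males 3.67 to 10.7).

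In diencephalon, courtship male 38 had 83.7 CPM of ENSGACG00000020415 (other courtship males 45.9 to 58.1) and a cluster 2 level of 5.21 (others 4.68 to 4.89). Courtship male 21 had 10.2 CPM of ENSGACG00000000833 (others 16.3 to 23.2) and tradeoff male 25 had 21.7 CPM of it (other tradeoff males 16.8 to 18.7). Tradeoff male 28 had 3.61 CPM of ENSGACG00000008430 (others 6.44 to 10.6).

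The telencephalon library of male 42, which entered the comparisons only as an alternative, held 24 members above all 30 other males, 14 of them in cluster 2. Of the 4201 other genes, 18.2% lay above.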

How the results depend on the processing

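The counts of called members were recomputed under 208 alternatives over 23 comparisons, and 206 gave 0, as did the fits as reported. The 2 that moved were both in 1 fit of all 60 libraries, with 1 member for any difference among the treatments and 2 for the departure from additivity, both in telencephalon. With the male as a replicate block (consensus correlation 0.384), 0 members were called in every comparison. The 18 alternative values of the members with the smallest p kept their direction and did not pass the threshold, but the log2 difference of ENSGACG00000018732, 3.22 as reported, was 0.83 by voom with sample quality weights, 0.71 with the replicate block and 0.01 without male 39, and DESeq2 gave no p for ENSGACG00000018732 in telencephalon. Leaving out males 26, 30 or 39 was added after the data were seen.

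The choice of genes depended more on the setting. Of the 100 members, 39 were chosen again with both libraries of male 42 and 50 with the scaled median absolute deviation in place of the SD. The other settings kept 77 (regional medians within 2-fold) to 96 (residual correlation below 0.2). Without 1 male, 74 to 97 were chosen again, the fewest without control male 26, where 34 of the 60 genes of cluster 1 were. The median pairwise correlation in telencephalon, 0.352, was 0.326 by Spearman's method and 0.293 to 0.391 without 1 male. With the regional index removed it was 0.211, where the index included 17 of the members. The cause of these shifts was not tested.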
